A study of Mus musculus with 14 samples.

Results

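Endocrine progenitor transcription factors were examined in cultured mouse islets taken at birth. They were Neurog3, Fev, Pax4, Sox4, Sox9, Hes1, Onecut1 and Gata6, chosen by name from the gene count table, so the set holds 8 genes of 54532 gene identifiers. The islets came from C57BL/6JRj pups of postnatal day 0 (P0 islets). They were treated for 1 day with 10 µM adjudin, a small molecule, or with its vehicle DMSO, at a glucose concentration of 11 mM. There were 7 libraries per treatment. Both treatments shared the strain, the age, the medium and the overnight recovery before treatment, and according to the methods each sample was a pool of islets from several pups of either sex. No allele or transgene separated the groups. The labels give every library a replicate number and a batch of the same number, so that the DMSO and the adjudin library of each number form a pair.

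Endocrine cells of the mouse pancreas arise from an epithelium that carries Sox9, Hes1, Onecut1 and Gata6. A pulse of the basic helix-loop-helix factor Neurog3 commits single cells of that epithelium to the endocrine lineage, and Notch signalling, acting through Hes1, holds Neurog3 down in the neighbouring cells. Fev, Pax4 and Sox4 act at or after that pulse, and Neurog3 falls to a low level once hormone cells have formed. Several of the factors are not restricted to that lineage: Sox4, Hes1 and Gata6 are also made by mesenchymal and other non-endocrine cells.

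The libraries held between 26475749 and 36900026 counts in 13 of 14 cases, and 108865228 counts in DMSO replicate 7, so a single count equalled a CPM (counts scaled to a common library total of 1000000) of 0.0378 at the lowest depth and of 0.00919 at the highest. DMSO replicate 5 stood apart. The summed level of 7 beta cell marker genes was 22.1 CPM there, against 4894 to 18008 CPM in the other 6 DMSO libraries and 1309 to 16772 CPM in the adjudin libraries, where the lowest value was that of replicate 5. Ins2, an insulin gene and thus a defining marker of the labelled tissue, was at 2.27 CPM in DMSO replicate 5 and at 587 CPM or above in each of the other 13 libraries. Mesenchymal markers summed to 17481 to 34399 CPM in DMSO and 17632 to 31761 CPM in adjudin libraries, so RNA of non-endocrine cells was present in every library. Values without replicate 5 are given below for each tested factor and each gene list. In bulk libraries, fewer cells of a type and less RNA per cell cannot be told apart.

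The 8 factors fell into abundant and scarce members. Per kilobase of gene length, the mean over the 14 libraries was 44.5 ± 3.60 CPM/kb (SD) for Sox4, 23.0 ± 5.27 for Gata6, 19.3 ± 3.02 for Hes1 and 4.43 ± 1.22 for Sox9. The other 4 were below 1 CPM/kb, with 0.601 ± 0.355 for Fev, 0.251 ± 0.162 for Neurog3, 0.231 ± 0.206 for Onecut1 and 0.0203 ± 0.0279 for Pax4. Sox4 was above Gata6 in 14 of 14 libraries, Hes1 was above Sox9 in 14 of 14, and Sox9 was above Fev in 14 of 14. Gata6 was above Hes1 in 10 of 14 libraries, Fev above Neurog3 in 12 and Onecut1 above Pax4 in 12. Neurog3 and Onecut1 were neighbours whose levels did not differ beyond their spread, with Neurog3 the higher in 8 of 14 libraries. By the same measure Sox4 lay above 93.7% of the 18732 genes tested, Gata6 above 87.1%, Hes1 above 84.3% and Sox9 above 50.7%, whereas Fev lay above 17.5%, Neurog3 above 7.58% and Onecut1 above 6.79%.

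Adjudin treatment moved none of the 8 factors past the test. By edgeR's quasi-likelihood F test, its p-values adjusted by Benjamini-Hochberg over 18732 genes, 0 of the 7 factors tested passed an adjusted p of 0.05, and each had an adjusted p of 0.9999. Over all genes 0.00534% passed, which was 1 gene (Cyp1a1, a drug-metabolising enzyme, named after its value was seen). Pax4 was too low to be tested. At an unadjusted p under 0.05 the count was also 0 of 7, where 2.26% of all genes reached that level. With the replicate number as a block it was 1 of 7, Neurog3, where 5.63% of all genes reached that level and 3.25% did so with a higher adjudin level, and 0 of 7 passed the adjusted threshold with the block in edgeR (0% of all genes), in DESeq2 without it (0.016%) or with it (0.561%), or in limma-voom (0% with or without it). The fitted change was above 0 for 5 factors and below 0 for 2, where 45.3% of all genes were above 0. Their median log2 fold change was 0.08, beside -0.01 over all genes tested. DMSO and adjudin levels overlapped for all 8 factors, as they did for all but 0.0214% of the genes tested. Without DMSO replicate 5 the counts above and below 0 were again 5 and 2, and the median log2 fold change was 0.20.

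**Figure D1:**
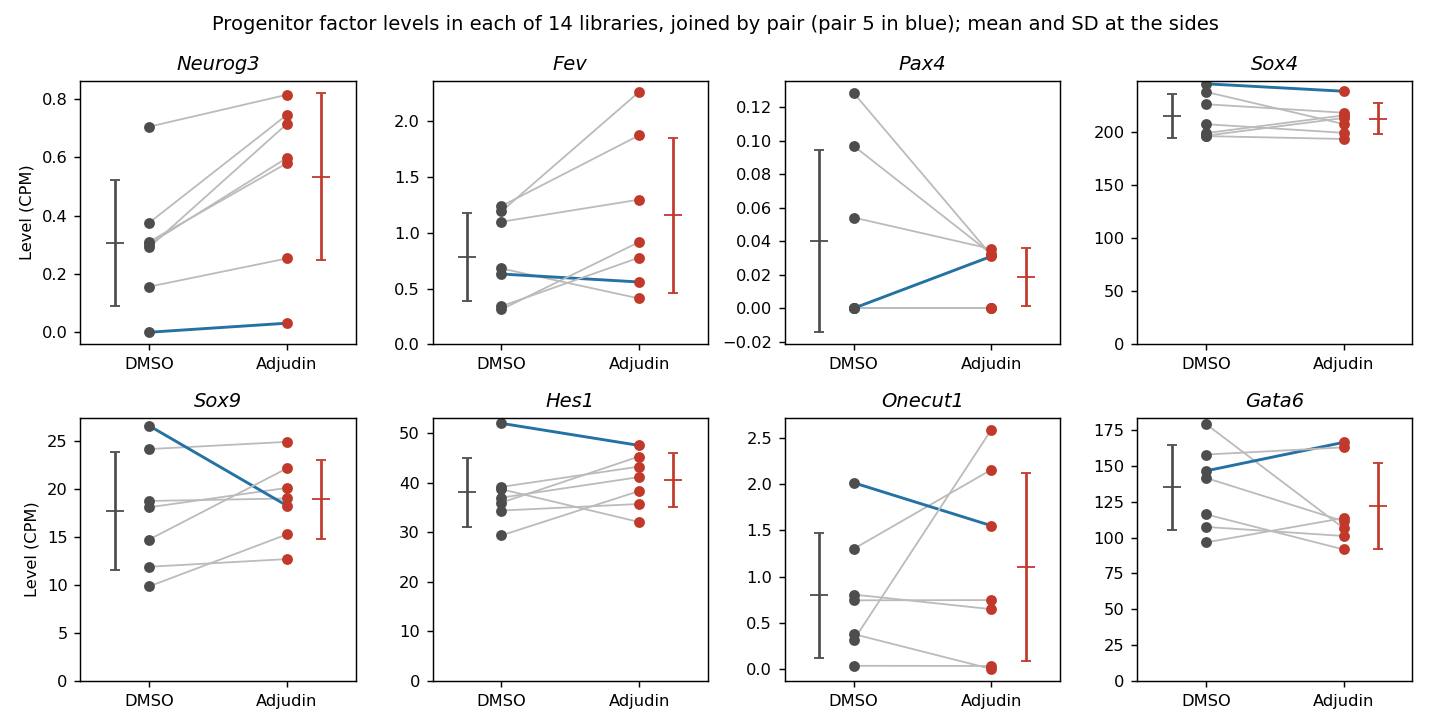
Level in CPM (vertical axes, each with its own scale) of the 8 factors in 7 DMSO and 7 adjudin libraries, with lines joining the 2 libraries of a pair, pair 5 in blue, and the mean and SD of each group at the sides. Neurog3 was higher with adjudin in 7 of 7 pairs, all on few counts and pair 5 on 0 counts against 1. The DMSO and adjudin ranges overlapped in every panel.

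Neurog3 (chr10:62133090-62134763, plus strand, mm10), the factor that commits cells to the endocrine lineage, was scarce and was higher with adjudin in every pair. Its level ran from 0 to 0.705 CPM in DMSO libraries, with a median of 0.302, and from 0.0310 to 0.814 CPM in adjudin libraries, with a median of 0.598. The groups overlapped, since DMSO replicate 3, at 0.705 CPM, was above 4 of the 7 adjudin libraries. The 7 pairs read 0.302 and 0.598 CPM in pair 1, 0.310 and 0.579 in pair 2, 0.705 and 0.814 in pair 3, 0.291 and 0.714 in pair 4, 0 and 0.0310 in pair 5, 0.375 and 0.745 in pair 6, and 0.156 and 0.253 in pair 7, DMSO before adjudin. Adjudin was thus the higher in 7 of 7 pairs, as it was for 1.19% of all genes tested. Pair 5 rests on 0 counts against 1 count, and 0 counts in that library allow a level of up to 0.0946 CPM, so its order is within counting error. The other 6 pairs hold between 8 and 26 counts per library, so their order also rests on few counts. In pair 3 there were 26 counts with DMSO and 23 with adjudin, and in pair 7 there were 17 and 8, in libraries of unlike depth. Whether the order of these 6 pairs exceeds counting error was not tested.

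The mean level was 0.306 ± 0.216 CPM with DMSO and 0.533 ± 0.287 CPM with adjudin (SD, n = 7 per group), and the change was not past the test. The log2 fold change in edgeR was 0.79 ± 0.60 (SE; unadjusted p = 0.208), and the 95% interval ran from -0.39 to 1.97. With the replicate block it was 0.84 ± 0.30 (unadjusted p = 0.0207 in edgeR's quasi-likelihood test, adjusted p = 0.854). DESeq2 with the block gave an unadjusted p of 0.0466 and an adjusted p of 0.744, where 6.5% of all genes had an unadjusted p under 0.05. Limma-voom with the block gave 0.0118 and 0.695, where 5.9% did. Without pair 5 the blocked edgeR value was 0.81, with an unadjusted p of 0.0251 in edgeR and 0.0616 in DESeq2. Without DMSO replicate 5 alone, and with no block, the log2 fold change was 0.57.

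Neurog3 shares sequence with a neighbour. Fam241b lies on the opposite strand, and the 2 genes have 273 exon bases in common, 16.3% of the exon bases of Neurog3 (GENCODE M21, mm10, chr10:62134489-62134761). Whether counting used the strand is not given, and without strand reads of the shared bases cannot be told apart. Fam241b had 3.64 ± 1.21 CPM (SD, n = 7) with DMSO and 5.53 ± 1.62 CPM (SD, n = 7) with adjudin, and was higher with adjudin in 6 of 7 pairs. Its edgeR log2 fold change was 0.59 ± 0.23 (unadjusted p = 0.0241). Over the 14 libraries the log2 levels of Neurog3 and Fam241b had a Pearson's r of 0.09 and a Spearman's rho of 0.14. The part of the shared bases in the Neurog3 values was not tested.

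Fev (chr1:74881509-74885419, minus strand), an ETS factor that marks a stage after Neurog3 in the mouse pancreas and drives serotonin genes in neurons, was higher with adjudin in 5 of 7 pairs, as were 23.3% of all genes at that count or more. It ran from 0.312 to 1.24 CPM in DMSO libraries, with a median of 0.680, and from 0.411 to 2.27 CPM in adjudin libraries, with a median of 0.917. Adjudin replicates 2 and 3, at 1.88 and 2.27 CPM, and adjudin replicate 4, at 1.30 CPM, were above every DMSO library, and the other 4 adjudin libraries lay within the DMSO range. Adjudin was the lower in pairs 1 and 5. The means were 0.785 ± 0.393 and 1.16 ± 0.693 CPM (SD, n = 7 per group), with a log2 fold change of 0.55 ± 0.42 in edgeR (unadjusted p = 0.210) and an interval from -0.27 to 1.38. With the replicate block the value was 0.52 ± 0.29 (unadjusted p = 0.104 in edgeR). Without pair 1 the blocked value was 0.70 with an unadjusted p of 0.0331 in edgeR, the 1 setting of those run in which Fev passed an unadjusted 0.05. With the block it was 0.63 without pair 5 and 0.37 without pair 7. Without the block and without adjudin replicate 3 alone, the library with the highest level, it was 0.32 (unadjusted p = 0.463 in edgeR).

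Pax4 (chr6:28442334-28449353, minus strand), a paired-homeobox factor that favours the beta and delta cell fates, was at the limit of detection. All 14 libraries together held 23 counts, of which 14 came from DMSO replicate 7, the deepest library. It had no count in 7 of 14 libraries, where 0 counts allow a level of up to 0.0930 to 0.113 CPM. The highest level was 0.129 CPM, in DMSO replicate 7. A difference between DMSO and adjudin was not detectable at this depth.

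Onecut1 (chr9:74861921-74891781, plus strand), also called hepatocyte nuclear factor 6, acts upstream of Neurog3 in the embryonic epithelium. It was spread widely between libraries. Its level ran from 0.0341 to 2.02 CPM in DMSO libraries, with a median of 0.744, and from 0 to 2.59 CPM in adjudin libraries, with a median of 0.746. The lowest values were 0 counts in adjudin replicate 1, which allow up to 0.112 CPM, and 1 count in each library of pair 6. DMSO replicate 5 was the highest of its group. Adjudin was the higher in 3 of 7 pairs, and in pair 7 the level was 0.312 CPM with DMSO and 2.59 CPM with adjudin. The log2 fold change was 0.45 ± 0.80 in edgeR (unadjusted p = 0.577), with an interval from -1.11 to 2.02, and 0.18 ± 0.62 with the replicate block. Its direction rested on pair 7: without that pair it was -0.04, and -0.32 with the block. Without pair 5 the values were 0.75 and 0.31.

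For 4 factors RefSeq (GRCm38.p6) gave a promoter, which was read here as the 250 bases before the RefSeq start. All 4 are shown. They are 3 of the scarce members, Neurog3, Fev and Onecut1, and the most abundant member, Sox4. Capitals mark the letters CACGNG on either strand, the class C site that HES factors such as Hes1 are known to bind; on the other strand these letters read CNCGTG.
Neurog3, chr10:62132840-62133089, plus strand: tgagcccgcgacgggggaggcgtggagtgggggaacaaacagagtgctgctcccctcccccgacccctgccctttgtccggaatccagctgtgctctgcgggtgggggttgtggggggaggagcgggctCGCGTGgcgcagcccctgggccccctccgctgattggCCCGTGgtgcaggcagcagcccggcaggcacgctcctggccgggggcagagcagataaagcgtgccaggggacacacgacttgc
Fev, chr1:74885409-74885658, minus strand: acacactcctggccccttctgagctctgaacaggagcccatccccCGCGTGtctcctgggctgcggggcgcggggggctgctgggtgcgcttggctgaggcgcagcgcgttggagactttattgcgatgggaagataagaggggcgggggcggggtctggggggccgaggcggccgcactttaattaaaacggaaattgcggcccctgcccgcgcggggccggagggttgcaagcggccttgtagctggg
Onecut1, chr9:74861671-74861920, plus strand: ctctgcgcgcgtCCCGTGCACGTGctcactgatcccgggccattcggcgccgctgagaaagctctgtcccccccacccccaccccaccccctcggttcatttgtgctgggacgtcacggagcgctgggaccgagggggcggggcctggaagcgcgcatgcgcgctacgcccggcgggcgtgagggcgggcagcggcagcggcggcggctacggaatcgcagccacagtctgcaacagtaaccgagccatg
Sox4, chr13:28953700-28953949, minus strand: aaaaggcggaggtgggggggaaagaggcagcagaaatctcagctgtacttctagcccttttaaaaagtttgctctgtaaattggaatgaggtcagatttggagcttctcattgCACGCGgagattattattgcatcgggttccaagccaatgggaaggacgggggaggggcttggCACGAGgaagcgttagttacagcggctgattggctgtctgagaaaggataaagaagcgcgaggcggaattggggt

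The letters CACGNG were present in all 4 windows, and in 23.5% of the 32851 promoters of the same length. Neurog3 held them 121 and 84 bases before its start, Fev 205 bases before, Sox4 137 and 75 bases before, and Onecut1 238 and 232 bases before, where the match at 232 is also the E-box CACGTG. The windows of Neurog3, Fev and Onecut1 were 71.2%, 68.0% and 71.6% G and C, against a median of 52.4% over all promoters, and that of Sox4 was 50.8%. The N-box CACNAG, the other sequence HES factors bind, was found on either strand in Sox4 alone, 75 bases before its start, where it overlaps the class C match, and in 36.7% of all promoters. The letters AGATAA, which zinc finger factors of the Gata family are known to bind, lay 32 bases before the start of Neurog3 and 118 bases before that of Fev, and in 9.99% of all promoters on either strand. Other letters were searched as well, and CACGNG was the only motif found in all 4 windows. The E-box CANNTG was found for Neurog3, Sox4 and Onecut1, and in 66.2% of all promoters. The RBPJ site TGGGAA was found for Fev and Sox4 (21.6% of all promoters), and the SOX site ACAAAG for Neurog3 (16.5%). A match is a run of letters and not a measured binding site.

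Hes1 (chr16:30064384-30067796, plus strand), the Notch effector that represses Neurog3, stayed within a narrow range. It ran from 29.4 to 52.0 CPM in DMSO libraries, with a median of 37.0, and from 32.1 to 47.6 CPM in adjudin libraries, with a median of 41.2. DMSO replicate 5 was the highest of all 14 libraries and DMSO replicate 7 the lowest. The means were 38.1 ± 6.96 and 40.5 ± 5.47 CPM (SD, n = 7 per group), and adjudin was the higher in 5 of 7 pairs. The log2 fold change was 0.08 ± 0.11 in edgeR (unadjusted p = 0.502), with an interval from -0.14 to 0.29. Without DMSO replicate 5 the log2 fold change was 0.16.

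Sox9 (chr11:112782224-112787760, plus strand), which maintains the progenitor pool and in later life marks ducts, was the higher with adjudin in 6 of 7 pairs, where 7.15% of all genes were higher in 6 or more. In pairs 1 to 4 the log2 difference was between 0.02 and 0.15. Its level ran from 9.86 to 26.6 CPM in DMSO libraries, with a median of 18.1, and from 12.7 to 24.9 CPM in adjudin libraries, with a median of 19.0. Pairs 6 and 7 differed most, with 14.7 and 22.2 CPM and with 9.86 and 15.3 CPM, DMSO before adjudin, and pair 5 went the other way, with 26.6 and 18.3 CPM. The log2 fold change was 0.08 ± 0.21 in edgeR (unadjusted p = 0.691), with an interval from -0.32 to 0.49. Without pair 5 it was 0.21, and 0.24 with the block. It was 0.00 without DMSO replicate 7, the library with the lowest level.

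Sox4 (chr13:28948919-28953713, minus strand), an HMG-box factor needed for endocrine cell formation and made by many embryonic cell types, was the most abundant and the least variable member. It ran from 195.7 to 245 CPM in DMSO libraries, with a median of 207, and from 193 to 238 CPM in adjudin libraries, with a median of 213. Both libraries of pair 5 were the highest of their group. The means were 215 ± 20.7 and 212 ± 14.6 CPM (SD, n = 7 per group), and adjudin was the lower in 5 of 7 pairs, as were 22.4% of all genes in 5 or more. The log2 fold change was -0.04 ± 0.07 in edgeR (unadjusted p = 0.589). Its interval, from -0.17 to 0.09, was the narrowest of the 7 factors tested. Without pair 5 the value was -0.04.

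Gata6 (mm10, plus strand), a zinc finger factor that specifies the pancreas together with Gata4, ran from 96.6 to 179 CPM in DMSO libraries, with a median of 142, and from 91.7 to 166 CPM in adjudin libraries, with a median of 111. The means were 135 ± 29.6 and 122 ± 30.1 CPM (SD, n = 7 per group), and adjudin was the lower in 4 of 7 pairs. The lowest within-pair ratio was in pair 3, with 179 CPM for DMSO and 106.5 CPM for adjudin. The log2 fold change was -0.16 ± 0.16 in edgeR (unadjusted p = 0.336), with an interval from -0.48 to 0.16. The value rested in large part on pair 3, since it was -0.03 without that pair, and -0.05 with the block, and -0.07 without DMSO replicate 3 alone. It was -0.10 without adjudin replicate 7, -0.24 without pair 5 or adjudin replicate 5 alone, and -0.25 without adjudin replicate 6. The gene 1010001N08Rik overlaps it on the other strand and had a log2 fold change of -0.33 ± 0.18.

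**Figure D2:**
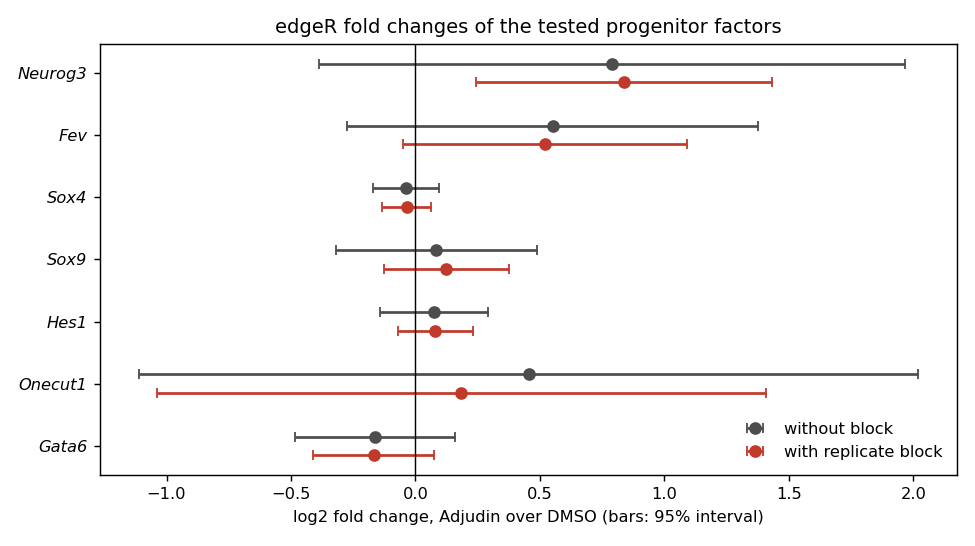
edgeR log2 fold change of adjudin over DMSO (horizontal axis) for the 7 factors tested, without a block in grey and with the replicate block in red, with bars for the 95% interval. The bars are widest for Onecut1 and narrowest for Sox4, and only the blocked bar of Neurog3, from 0.24 to 1.43, lies clear of 0.

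To see with which cells the factors varied between libraries, each factor was set beside the mean log2 level of marker lists for 11 cell types, as a description over 14 libraries in which the 2 libraries of a pair share a batch. Neurog3 went with all 3 endocrine lists, with a Pearson's r of 0.85 for the beta cell markers (Spearman's rho = 0.69), 0.77 for the delta, PP and epsilon cell markers and 0.75 for the alpha cell markers. Without the 2 libraries farthest from the Neurog3 median, these were 0.43, 0.41 and 0.41, and the acinar markers, at 0.58 with or without those libraries, then had the highest r. Fev went with the delta, PP and epsilon cell markers (r = 0.71, rho = 0.84) and the alpha cell markers (r = 0.68, rho = 0.86). With the beta cell markers its r was lower, at 0.45, but its rho was 0.81, so by rank it went with all 3 endocrine lists. Onecut1 and Hes1 went with the ductal markers, with r of 0.71 and 0.66. Gata6 went with the mesenchymal markers (r = 0.84, and 0.85 without the 2 libraries farthest from its median). Sox4 ran against the beta cell markers (r = -0.65), but r was -0.20 without the 2 farthest libraries. Sox9 had an r between -0.42 and 0.34 with the 11 lists.

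**Figure D3:**
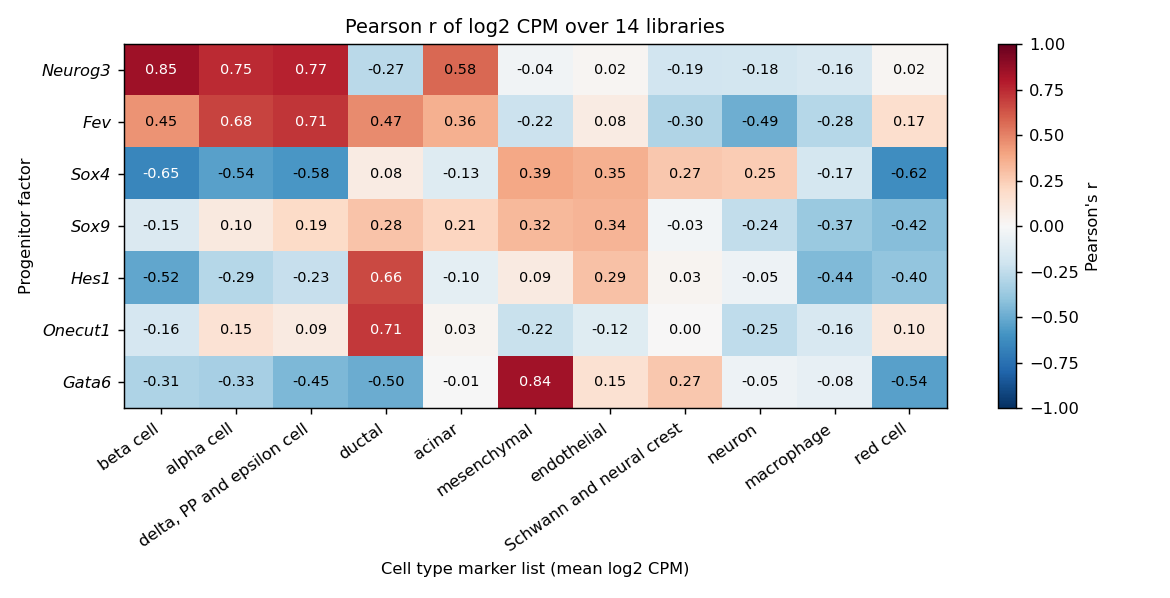
Pearson's r of log2 CPM over 14 libraries between each of the 7 factors tested (rows) and the mean log2 level of 11 cell type marker lists (columns), from blue at -1 to red at 1. The highest values are 0.85 for Neurog3 with beta cell markers and 0.84 for Gata6 with mesenchymal markers.

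Those marker levels also differed between DMSO and adjudin in part of the pairs. The summed acinar markers were higher with adjudin in 6 of 7 pairs, where 7.15% of single genes were higher in 6 or more. Their sum ran from 2.15 to 427 CPM in DMSO and from 38.3 to 431 CPM in adjudin libraries. Of the 9 acinar markers, Cel, Cela2a, Cela3b and Try5 were at 0 in at least 1 library. The summed beta cell, alpha cell and ductal markers were each higher in 5 of 7 pairs, where 23.3% of single genes were higher in 5 or more. The summed mesenchymal markers were higher in 1 of 7. Within the beta cell list, Ins2 was lower with adjudin in pairs 1, 2, 3, 4 and 7 and higher in pairs 5 and 6. All 7 beta cell, 5 alpha cell, 11 ductal and 8 mesenchymal markers had a count in every library. The part of these cell types in the values of Neurog3, Fev and Gata6 was not tested.

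Among the 15835 tested genes whose log2 CPM averaged 0 or more, the 3 whose levels were most like those of each factor were read off by Pearson's r over the 14 libraries. These genes were picked for the highest r, so their r is a description. How high an r such picking gives by itself was not tested. For Neurog3 the 3 genes included Tmem132b (r = 0.91) and Mafa, a beta cell transcription factor (0.90). Without the 2 libraries farthest from the Neurog3 median, r was 0.73 for Tmem132b and 0.71 for Mafa. For Fev they were Prrg2 (0.96), the cytidine deaminase Cda (0.93) and the lipid kinase Pip5k1b (0.93). For Gata6 they were the collagen crosslinker Lox (0.96), the matrix protein Fbln2 (0.93) and Abca9 (0.92). For Onecut1 they were Etnk2 (0.91), Dcdc2a (0.90) and the complement factor Cfi (0.89), and for Hes1 they were Ubxn8 (0.90), the transcription factor Klf4 (0.89) and Zscan2 (0.87). Sox4 was most like Cep68 (0.93), Sfpq (0.87) and Rnf122 (0.87), and Sox9 was most like Tubg1 (0.94), Ube2k (0.93) and Lrrc42 (0.93). Among the factors themselves, r was 0.68 for Sox4 and Hes1, 0.65 for Sox9 and Hes1, and 0.64 for Fev and Sox9. Without the 2 libraries farthest from the median of the first-named factor, these were 0.41, 0.42 and 0.42. For Sox9 and Hes1, r was 0.85 within DMSO and 0.23 within adjudin libraries. Over the 14 libraries r was 0.57 for Hes1 and Onecut1 and for Sox4 and Gata6. Next came 0.55 for Fev and Onecut1, 0.46 for Sox9 and Onecut1, and 0.45 for Neurog3 and Fev. Neurog3 and its repressor Hes1 had an r of -0.38, and 0.58 without the 2 libraries farthest from the Neurog3 median, so that the sign rested on those libraries.

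Genes linked to Neurog3 and to endocrine precursors were read from a list of 20, of which 19 were tested. In edgeR 0 passed the adjusted threshold, 14 had a log2 fold change above 0, and the median was 0.17, beside 45.3% above 0 and a median of -0.01 over all genes. With the replicate block 7 of 19 reached an unadjusted p under 0.05 in edgeR, all higher with adjudin, where 3.25% of all genes did so with a higher level. Of the 6 fits with all libraries, DESeq2 with the block was the only one that called genes of this or any of the other lists below. Its calls were 0.561% of all genes. Each gene of these lists that it called had an adjusted p of 0.9999 in DESeq2 without the block and of 0.321 or above in edgeR with it. It called 2 of these 19, Nkx2-2 and Rfx6, both transcription factors of endocrine differentiation. Nkx2-2 had 6.06 ± 4.29 CPM with DMSO and 10.1 ± 8.75 CPM with adjudin (SD, n = 7 per group; adjusted p = 0.00935 in DESeq2 with the block), and Rfx6 had 6.39 ± 3.93 and 10.5 ± 7.15 CPM (adjusted p = 0.0135). Both were higher in 7 of 7 pairs, as were 1.19% of all genes tested. The fit that called them also compares within pairs, so this is no separate support. Without pair 5, an alternative added after seeing the data, the same fit called Cck, Chgb, Nkx2-2 and Rfx6. Without DMSO replicate 5 the edgeR median of the list was 0.14. The summed beta cell and alpha cell markers were also higher with adjudin, each in 5 of 7 pairs. The part of these cells in the values of this list was not tested. The 3 most abundant genes of the list, the secretory granule protein Chgb, Amotl2 and the antiproliferative gene Btg2, had edgeR log2 fold changes of 0.91 ± 0.54, -0.13 ± 0.10 and 0.03 ± 0.09.

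Of 14 endocrine lineage factors, which keep hormone cell identities after Neurog3 has fallen, 13 had a log2 fold change above 0, where 45.3% of all genes did, and the median was 0.54. Again 0 passed the adjusted threshold in edgeR, and with the block 6 of 14 had an unadjusted p under 0.05, all higher, beside 3.25% of all genes. DESeq2 with the block called Pdx1, Mnx1 and Pax6, each higher in 7 of 7 pairs, as were 1.19% of all genes tested. That fit compares within pairs, so the pair counts are no separate support. Pdx1, a beta cell and pancreas factor, had 10.2 ± 6.59 CPM with DMSO and 18.2 ± 13.7 CPM with adjudin (SD, n = 7 per group; adjusted p = 7.52e-05 in DESeq2 with the block, and 0.321 in edgeR with the block). Mnx1 had an adjusted p of 0.00935 and Pax6 of 0.0184 in the same fit. Mafa and Isl1, which were among the abundant genes of this list, had edgeR log2 fold changes of 0.76 ± 0.68 and 0.27 ± 0.38. Without DMSO replicate 5 the edgeR median of the list was 0.33. Without pair 5, DESeq2 with the block called Pdx1, Mnx1, Pax6 and Mafa. The part of the beta cell and alpha cell markers, each higher in sum in 5 of 7 pairs, in these values was not tested.

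Of 19 factors of the progenitor epithelium, 17 were tested and 16 had a log2 fold change above 0 (45.3% of all genes), with a median of 0.31, and of 0.31 also without DMSO replicate 5. In edgeR 0 were called. With the block 3 were higher and 1 was lower at an unadjusted p under 0.05, beside 5.63% of all genes in either direction, and DESeq2 with the block called Nkx6-2 alone, at 5.27 ± 3.46 CPM with DMSO and 8.06 ± 5.80 CPM with adjudin (SD, n = 7 per group; adjusted p = 0.0376 in DESeq2 with the block). Without pair 5 that fit called 4 of 18, namely Foxa2, Hnf4a, Nkx6-2 and Onecut3. The most abundant of the list were the Hippo pathway genes Tead1 and Yap1, with edgeR log2 fold changes of -0.20 ± 0.12 and 0.03 ± 0.13, and Onecut2, with 0.46 ± 0.56. The summed ductal markers were higher with adjudin in 5 of 7 pairs, and their part in the values of this list was not tested.

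The Notch pathway, through which Hes1 is induced, had a median below 0. Of 21 genes 20 were tested, 5 had a log2 fold change above 0 (45.3% of all genes), and the median was -0.09, and -0.04 without DMSO replicate 5. In edgeR 0 were called, 4 had an unadjusted p under 0.05, all lower, beside 2.26% of all genes in either direction, and with the block 5, all lower, beside 5.63%. DESeq2 with the block called Heyl, a Notch effector of the Hes and Hey family, at 135.5 ± 29.6 CPM with DMSO and 104 ± 23.2 CPM with adjudin (SD, n = 7 per group; adjusted p = 0.000231 in DESeq2 with the block, and 0.321 in edgeR with the block). Heyl was lower in 7 of 7 pairs, as were 0.587% of all genes tested, and the fit that called it also compares within pairs. Heyl was also called without pair 5. The receptors Notch3 and Notch2, the other abundant genes of the list, had edgeR log2 fold changes of -0.14 ± 0.17 and -0.15 ± 0.12. The mesenchymal markers, whose sum was lower with adjudin in 6 of 7 pairs, moved in the same direction, and their part in these values was not tested.

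Of 13 genes linked to the serotonin programme of neurons, in which Fev acts, 12 were tested and 7 had a log2 fold change above 0 (45.3% of all genes). The median was 0.24, and 0.14 without DMSO replicate 5. In edgeR 0 were called, and at an unadjusted p under 0.05 there was 1 higher and 1 lower, beside 2.26% of all genes in either direction. The lower gene was Gata2, named after its value was seen, with an edgeR log2 fold change of -0.42 ± 0.15. With the block 2 were higher and 1 was lower, beside 5.63% of all genes. DESeq2 with the block called Gch1, which makes the cofactor of serotonin synthesis, and Maob, which breaks monoamines down. Gch1 had 25.5 ± 9.11 CPM with DMSO and 39.6 ± 16.5 CPM with adjudin (SD, n = 7 per group; adjusted p = 0.0497 in DESeq2 with the block), and Maob had 13.8 ± 8.38 and 22.7 ± 14.9 CPM (adjusted p = 0.00324). The same 2 were called without pair 5. Ddc, the decarboxylase of the pathway, had an edgeR log2 fold change of 0.27 ± 0.32. Of 36 paralogues from the families of the 8 factors 28 were tested and 17 were above 0 (45.3% of all genes). Their median was 0.02, and 0.08 without DMSO replicate 5. The most abundant, Sox10, Sox12 and Onecut2, had edgeR log2 fold changes of -0.11 ± 0.36, 0.03 ± 0.16 and 0.46 ± 0.56, and Pax6 was the paralogue that DESeq2 with the block called. Without pair 5 that fit called Onecut3, Pax6 and Sox21. Some genes stand in more than 1 list and count in each. Among these, Pax6 is also in the endocrine lineage list, and Onecut2 and Onecut3 are in the progenitor epithelium list. Dll1, Hes6 and Mfng are in both the list of genes linked to Neurog3 and the Notch list.

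**Figure D4:**
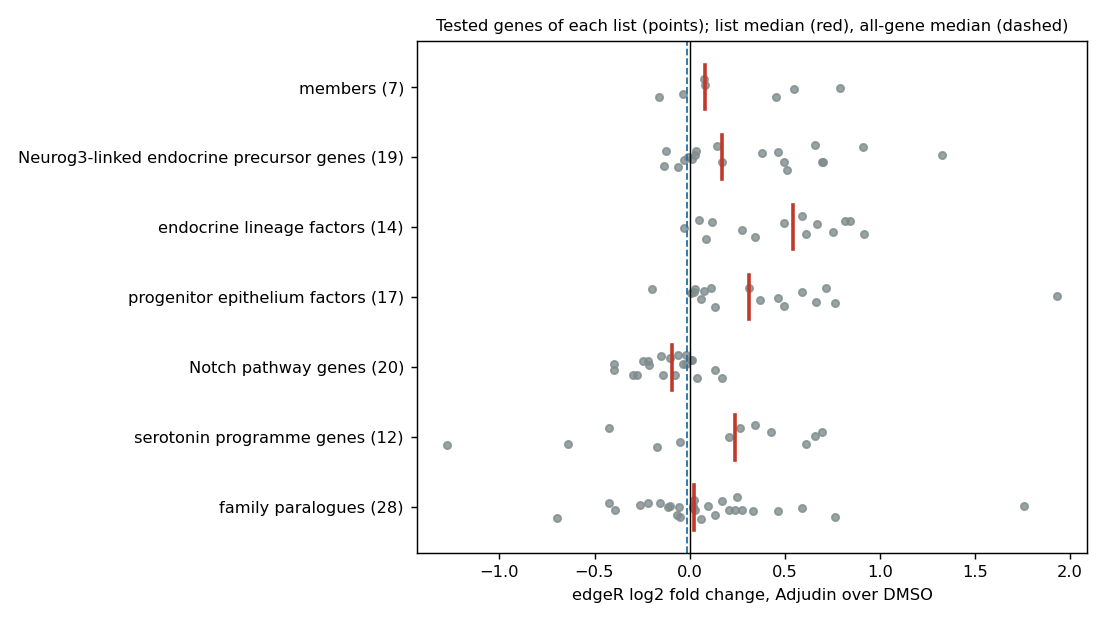
edgeR log2 fold change of adjudin over DMSO (horizontal axis) for each tested gene of the 8 factors and of 6 related lists, with the number tested in parentheses, the list median in red and the median over all genes as a dashed line. The list medians range from -0.09 for the Notch pathway to 0.54 for the endocrine lineage factors, and the 8 factors lie at 0.08.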

How the data were processed

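RNA was measured in 14 libraries, 7 per treatment. The deposited counts are reads per gene with no normalization, and the table also gives a gene length. Reads were paired-end. The submitters' notes name HISAT2 2.0.5 for alignment to mm10, and the authors made the counts with featureCounts 1.5.0-p3. No source used here gives the annotation release, the strand setting or the handling of multi-mapping reads, and overlapping genes are therefore uncertain. Counts were tested with edgeR 4.0.16 (R 4.3.3; robust quasi-likelihood fit, TMM scaling, filterByExpr with a minimum count of 10, treatment as the single term) over 18732 genes, with Benjamini-Hochberg adjustment and a threshold of 0.05, after a check on simulated data. The simulated counts had a fixed dispersion and no batch differences, so that check did not measure power for the factors examined here. SEs are the absolute log2 fold change over the root of F. The 95% intervals take the SE with a normal multiplier, which makes them narrower than the F test would. CPM were taken on library totals of 26475749 to 108865228, and log2 CPM used a prior count of 2. Floors cover counting error only (3 counts).

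The labels give the replicate number and the batch together. Deviations from the group mean had an r of -0.135 to 0.452 between same-numbered libraries (mean 0.246) and a mean of -0.041 between other numbers. Whether pups differed between the libraries of a pair is not stated, so p-values measure the spread between these samples. No 2 libraries agreed within sampling noise.

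Alternatives were the replicate block, DESeq2 1.42.0, limma-voom (limma 3.58.1), other scaling, no filter, and each library or pair left out. The members, the gene lists and the tests were chosen with earlier results of these data known. Genes named beside the 8 factors are, for each list, the 3 tested genes of highest mean CPM and those past an adjusted p of 0.05 in edgeR or DESeq2, with or without the block, and for each factor the 3 genes of highest r. Exceptions are named in the text. Some genes that this rule selects are not reported here. Promoters came from RefSeq, which matched 4 of the 8 factors.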

Additional observations from a re-analysis of the deposited data

How the results depend on the processing

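Over 37 alternatives the 7 factors tested gave 255 values, of which 251 kept the direction of the edgeR fit and 0 passed an adjusted p of 0.05 (the lowest was 0.662). The direction turned for Sox9 without DMSO replicate 7 (-0.0048), and for Onecut1 in limma-voom (-0.11), without pair 7 (-0.0432) and with the replicate block without pair 7 (-0.32). The cause was not tested. With a library or pair left out, edgeR values without the block ran from -0.0048 to 0.2066 for Sox9, from -0.0432 to 0.8472 for Onecut1, from 0.57 to 1.16 for Neurog3, from 0.32 to 0.70 for Fev, from -0.0611 to -0.0037 for Sox4, from 0.04 to 0.16 for Hes1 and from -0.25 to -0.03 for Gata6. Neurog3 was left out by the filter without pair 3 and without pair 6.

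The count of all genes past an adjusted p of 0.05, 1 in edgeR, was 0 with the replicate block, 3 in DESeq2 (Cyp1a1, Ddit4 and Apln, named after their values were seen), 105 in DESeq2 with the block, 0 in limma-voom with or without the block, and 0 to 1 with a library or pair left out in edgeR. DESeq2 with the block and without pair 5, an alternative chosen after seeing the data, gave 216. The count at an unadjusted p under 0.05, 424 in edgeR, was 1055 with the replicate block, 1218 in DESeq2 with the block, 1106 in limma-voom with the block, and 2884 of 38028 genes with no filter. It was 315 to 644 with a library or pair left out, with 644 without DMSO replicate 5, and with the block and without pairs 1 to 7 in turn 966, 835, 772, 807, 1251, 875 and 1252. It was 1454 in DESeq2 with the block and without pair 5. With the block and a pair left out, 0 to 2 factors had an unadjusted p under 0.05. The block changed the adjusted call of no factor in edgeR, DESeq2 or limma-voom. Depth limits Neurog3, Pax4, Fev and Onecut1, which had 191, 23, 441 and 442 counts over all libraries.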
